A study of Mus musculus with 6 samples.

Results

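Guanylate-binding proteins (GBPs) are large GTPases that interferons induce strongly in macrophages. They assemble on pathogen-containing vacuoles and on the surface of cytosolic bacteria, and there they help to restrict microbes and to activate the caspases of the inflammasome. Interferon receptors signal to their promoters through JAK kinases and transcription factors that bind gamma-activated sites (GAS) or interferon-stimulated response elements (ISRE), and IRF1 binds elements related to the ISRE. In mice the family is arranged in a cluster on chromosome 3 and a cluster on chromosome 5.

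The 9 mouse genes named Gbp2, Gbp2b, Gbp3, Gbp4, Gbp5, Gbp6, Gbp7, Gbp8 and Gbp9 were described in bone marrow–derived macrophages (BMDMs), out of 36186 genes with a transcript in the data. They were chosen by name, with earlier results of these data known, and each of the 9 was among the 18514 genes tested. BMDMs of 2 genotypes were compared after hypoxia with serum starvation (HSS), a culture model of ischemia, with 3 libraries of each. Drp1 KO cells came from LysM-Cre+/- Drp1 fl/fl mice and WT cells from LysM-Cre+/- Drp1+/+ mice, so the Cre transgene was present in both genotypes. LysM-Cre is driven by the lysozyme M promoter, which is active in myeloid cells. DRP1 is the GTPase that divides mitochondria, and its gene is Dnm1l. The mice were 8 to 12 weeks old and of both sexes, and marrow of 2 mice per genotype was pooled. The labels call the libraries biological replicates, and it was not stated whether each came from its own pool of marrow, so the p-values measure the spread between these libraries. The cells were kept for 8 hours in medium without serum at 2.1% oxygen, according to the labels. No library of cells kept in normal medium and oxygen was used here, so the values compare genotypes within HSS.

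The WT libraries held 24269850 to 28650715 estimated reads, and those of Drp1 KO cells 23389488 to 32231206. The targeted gene Dnm1l had 72.7, 69.9 and 75.1 CPM (counts scaled to the depth of the library) in the WT libraries and 58.7, 60.7 and 66.3 CPM in the Drp1 KO libraries. Each Drp1 KO library was below each WT library, but the log2 fold change of -0.23 (SE 0.0921) did not pass (adjusted p = 0.248, edgeR's quasi-likelihood test with Benjamini-Hochberg adjustment). The data give values per transcript and not per exon, so loss of the floxed segment was not tested. Of 10 macrophage markers, none was absent: Lyz2, Adgre1 and Cd68 had log2 fold changes of -0.10, 0.05 and -0.02. One of the 10, the Fc receptor gene Fcgr1, rose (log2 fold change 1.34), and the receptor genes Mertk (-0.52) and Csf1r (-0.52) fell. With the replicate numbers as a block Cebpa also fell (-0.38, adjusted p = 0.0229, against 0.249 without it).

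The family is listed first by its place in the genome (GRCm39, GENCODE annotation). On the plus strand of chromosome 3 lie Gbp5 (142199739 to 142228105), Gbp7 (142236044 to 142255910), Gbp3 (142265731 to 142278979), Gbp2b (142300602 to 142324940) and Gbp2 (142326349 to 142343779). On the minus strand of chromosome 5 lie Gbp8 (105162016 to 105287452), Gbp9 (105224332 to 105287452), Gbp4 (105263633 to 105287609) and Gbp6 (105418568 to 105443751). The annotated spans of Gbp8, Gbp9 and Gbp4 overlap on the same strand. Gbp10 (105362773 to 105412666) and Gbp11 (105470908 to 105494338) lie in the same chromosome 5 cluster and were described beside the 9 genes.

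RefSeq promoter sequences (250 bases before an annotated start, table build GRCm38.p6) were held for 5 of the 9 genes, with 6 start sites: Gbp5, Gbp7, Gbp3, Gbp2b and Gbp2. Each of the 5 genes had at least 1 match, on either strand, to the core of an ISRE, spelled GAAA and again GAAA with any 2 bases between them. Such a match stood in 2.98% of all 32851 promoters of the same length in the table. In each of these genes the match lay on the minus strand, so it reads on the plus strand as TTTC, 2 bases and TTTC. A match stood in 5 of the 6 promoters, and the matches are shown because each of the 5 genes has one, with the 10 motif bases in capitals in stretches of 30 bases on the plus strand.
Gbp5: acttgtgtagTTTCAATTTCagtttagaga
Gbp7: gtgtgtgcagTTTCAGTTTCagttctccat
Gbp3: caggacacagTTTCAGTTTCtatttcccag
Gbp2b: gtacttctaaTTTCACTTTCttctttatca
Gbp2: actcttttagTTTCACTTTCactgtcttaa

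The RefSeq sequences were placed on GRCm39 by exact match. The Gbp5 stretch is chr3:142202520-142202549, with its motif at -165 to -156 from the RefSeq start. The Gbp7 stretch is chr3:142236034-142236063 (motif -53 to -44), and the Gbp3 stretch is chr3:142265750-142265779 (motif -45 to -36). The Gbp2b stretch is chr3:142300461-142300490 (motif -137 to -128), and the Gbp2 stretch is chr3:142326355-142326384 (motif -59 to -50). The stretches of Gbp5, Gbp7, Gbp3 and Gbp2 overlap a GENCODE exon without coding bases, and that of Gbp2b lies upstream of the annotated gene. The RefSeq start used lies 53, 74 and 75 bases after the GENCODE gene start in Gbp7, Gbp3 and Gbp2. In Gbp5 it lies 2956 bases after it. Gbp3 had a second match at -39 to -30, which overlaps the first, and the other Gbp3 start site had none. The GAS letters, TTC and GAA with any 3 bases between them, which read the same on both strands, matched at 2 places each in Gbp5 and Gbp7 and stood in 7.02% of all promoters. An NF-κB site, spelled GGGA and TTTCC with 1 base between them, matched in Gbp5 at -77 to -68 and stood in 0.356% of all promoters. None of the GAS or NF-κB matches overlapped an ISRE match. A match describes the letters and is not evidence of binding.

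In Drp1 KO BMDMs 6 of the 9 genes rose at an adjusted p under 0.05, and none of the 9 fell, also by unadjusted p and in DESeq2 and limma-voom. Among all 18514 genes tested, 2.3% rose and 1.06% fell by the same rule. The 6 were Gbp6, Gbp9, Gbp8, Gbp4, Gbp7 and Gbp2. Each of the 9 genes was higher by more than 25% with an unadjusted p under 0.05, the study's own criteria, which 7.19% of all genes met in that direction. With DESeq2 and with limma-voom it was 8 of the 9, without Gbp2b (DESeq2, unadjusted p = 0.0591). In 8 of the 9 each Drp1 KO library was above each WT library, which held for 11.7% of all genes. The exact permutation test of 3 against 3 libraries cannot give a two-sided p below 0.1. The median log2 fold change of the 9 genes was 1.38, against 0.0046 over all genes. Gbp2b passed the filter of 10 counts only through the Drp1 KO libraries, where its lowest library had 2 counts, against 1 in the highest WT library. Without it 6 of 8 genes rose, 8 of 8 met the study's criteria and 7 of 8 had no overlap between genotypes. These 8 genes had a median of 1.21 and a range of 0.75 to 2.32, and with it at the bound that its floor allows the median of the 9 was 1.04. A log2 fold change above 0 was seen in 9 of the 9 genes and in 50.6% of all genes. Left out 1 at a time, WT library 2 and WT library 3 each left 2 of the 9 genes past the threshold (Gbp6 and Gbp9), and 0.768% and 0.902% of all genes rose in those fits. Without Drp1 KO library 2, where 8 of the 9 were tested, there were 3 (Gbp6, Gbp8 and Gbp9), and 226 of 18031 genes tested rose. In that fit Gbp2, Gbp4 and Gbp7 did not pass, with log2 fold changes of 1.09, 1.51 and 0.97. The log2 fold changes of the genes whose calls were lost (Gbp2, Gbp4, Gbp7 and Gbp8) were 0.98 to 1.55 without WT library 2 and 0.87 to 1.33 without WT library 3.

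**Figure D1:**
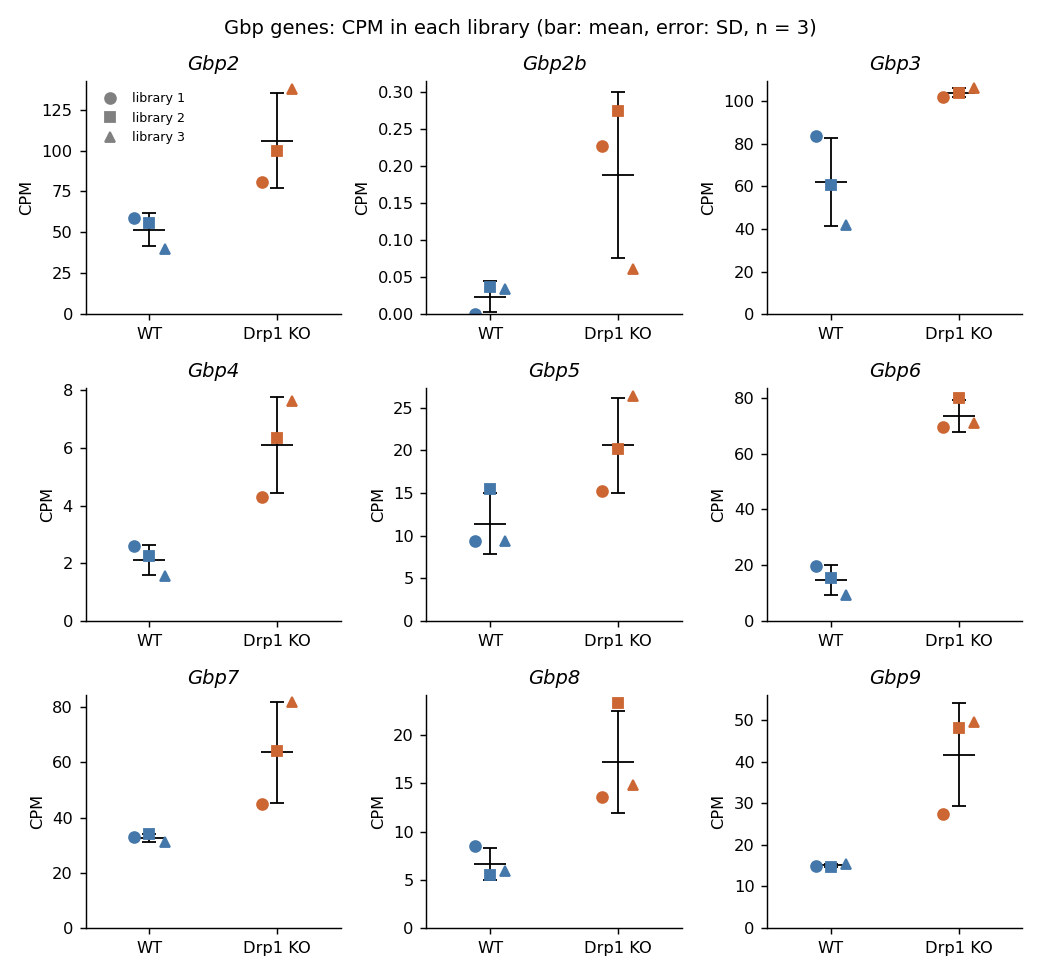
CPM (y axis, linear, separate scale for each gene) of the 9 Gbp genes in the 3 WT (blue) and 3 Drp1 KO (orange) libraries. Circles, squares and triangles mark libraries 1, 2 and 3, the black bar is the mean and its error bar the SD. Each Drp1 KO point lies above each WT point except in Gbp5, where WT library 2 (15.5 CPM) and Drp1 KO library 1 (15.3 CPM) overlap.

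Gbp6 of the chromosome 5 cluster, a family member linked to macrophage defence against intracellular bacteria, had the clearest difference. It was measured at 19.7, 15.3 and 9.27 CPM in the WT libraries and at 69.5, 80.1 and 70.9 CPM in the Drp1 KO libraries. The lowest Drp1 KO library was far above the highest WT library. The means were 14.8 ± 5.22 and 73.5 ± 5.73 CPM (SD, n = 3), the log2 fold change was 2.32 (SE 0.221) and the adjusted p was 0.000487 (edgeR). By p-value Gbp6 stood at rank 35 of the 18514 genes.

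Gbp6 is also the member whose reads are hardest to assign. Of the stretches of 31 bases (31-mers) in its GENCODE transcripts, 62.0% also occur in Gbp10, and 28.4% occur in no other gene. The overlapping annotated locus Gm43302 shares 65.1% of them, and it had 5 counts in WT library 1 and 0 in each other library. Gbp10 had 0, 7 and 0 counts in WT and 5, 14 and 30 counts in Drp1 KO libraries, against 272 to 2621 counts of Gbp6. The rate of Gbp10 counts was 6.35 times as high in Drp1 KO (95% interval 2.86 to 16.6, exact, counting error only), and the gene did not pass (adjusted p = 0.235, edgeR). Gbp11 had 5, 11 and 4 counts in WT and 4, 32 and 19 counts in Drp1 KO libraries and did not pass either (adjusted p = 0.396). Since kallisto divides shared reads by estimate, the counts of these loci are uncertain one by one, and the 6 chromosome 5 loci were also summed. Their sum was 46.0, 38.4 and 32.3 CPM in WT and 115, 159 and 144 CPM in Drp1 KO libraries. The groups of sums did not overlap, and the log2 fold change was 1.85 (SE 0.155, adjusted p = 0.000311, edgeR).

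Gbp9 was at nearly the same level in the WT libraries (15.0, 14.7 and 15.4 CPM) and at 27.4, 48.2 and 49.6 CPM in the Drp1 KO libraries. Library 1 was the lowest of the Drp1 KO group and still above the WT range. The log2 fold change from a mean of 15.0 ± 0.357 to one of 41.7 ± 12.4 CPM was 1.48 (SE 0.199, adjusted p = 0.00345). Gbp6 and Gbp9 passed in each of 15 alternative fits, with log2 fold changes of 2.06 to 2.58 and 1.29 to 1.69.

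Gbp8 had 8.54, 5.51 and 5.89 CPM in WT and 13.6, 23.3 and 14.8 CPM in Drp1 KO libraries. Drp1 KO library 2 was the highest, and the groups did not overlap. The log2 fold change was 1.38 (SE 0.235, adjusted p = 0.0112), and 32.0% of its 31-mers also occur in other Gbp genes. Gbp4, which has been described as an inhibitor of IRF7, had the fewest counts of the called members. It had 2.59, 2.25 and 1.57 CPM in WT and 4.31, 6.35 and 7.64 CPM in Drp1 KO libraries. Its groups did not overlap either, and its log2 fold change was 1.53 (SE 0.263, adjusted p = 0.0122). When only transcripts annotated as protein coding were counted, Gbp8 (adjusted p = 0.0640) and Gbp4 (log2 fold change 4.45, adjusted p = 0.145) did not pass.

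On chromosome 3, Gbp2, which carries a lipid anchor and coats vacuoles and bacteria, had 58.8, 55.9 and 40.0 CPM in WT and 80.9, 99.4 and 138 CPM in Drp1 KO libraries. Drp1 KO library 3 was the highest, and the groups did not overlap. The log2 fold change from a mean of 51.6 ± 10.1 to one of 106 ± 28.9 CPM was 1.04 (SE 0.198, adjusted p = 0.0207). Gbp7, linked to the assembly of the phagocyte oxidase, had 32.8, 34.1 and 31.2 CPM in WT and 45.1, 64.1 and 81.8 CPM in Drp1 KO libraries. Its WT libraries were close together and the Drp1 KO libraries were spread out above them. This gave a log2 fold change of 0.96 (SE 0.181, adjusted p = 0.0193). A pseudogene within the Gbp7 span, Gm43802, shares 10.7% of the Gbp7 31-mers and had 16 to 32 counts per library, against 760 to 2666 of Gbp7.

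Gbp3 and Gbp5 did not pass in the unpaired edgeR fit as reported. Without pairs both passed in DESeq2 (adjusted p = 0.00832 and 0.0103) and neither in limma-voom (0.0519 and 0.0750). Both also passed in edgeR with genes of at least 1 count (0.00348 and 0.00693). Gbp3 had 83.5, 60.4 and 42.0 CPM in WT and 102, 104 and 106 CPM in Drp1 KO libraries. The Drp1 KO libraries were nearly level and the WT libraries were spread out, with WT library 1 closest to the Drp1 KO group. The log2 fold change was 0.75 (SE 0.197, adjusted p = 0.0760). With the replicate numbers as a block, it was 0.80 (SE 0.151) and passed (adjusted p = 0.00677). With 1 library left out it ranged from 0.52 without WT library 3 (adjusted p = 0.189) to 1.02 without WT library 1, the one case that passed (adjusted p = 0.00544).

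Gbp5, which promotes assembly of the NLRP3 inflammasome, had 9.44, 15.5 and 9.33 CPM in WT and 15.3, 20.2 and 26.4 CPM in Drp1 KO libraries. It was the one member whose groups overlapped, through WT library 2 and Drp1 KO library 1. The log2 fold change was 0.85 (SE 0.237, adjusted p = 0.0887). With the block it was 0.86 (SE 0.176) and passed (adjusted p = 0.0105). With 1 library left out it ranged from 0.64 without Drp1 KO library 3 (adjusted p = 0.252) to 1.12 without WT library 2 (adjusted p = 0.0665), and it passed only without Drp1 KO library 1 (1.02, adjusted p = 0.0332). With the block 8 of the 9 genes rose, as did 6.74% of all genes in that fit.

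Gbp2b, the gene once named Gbp1, was close to the limit of detection. It had 0, 1 and 1 counts in WT and 5, 9 and 2 counts in Drp1 KO libraries. A floor of 3 counts was 0.0916 to 0.136 CPM, and Drp1 KO libraries 1 and 2 were above it. The rate of counts was 7.25 times as high in Drp1 KO, with a 95% interval of 1.71 to 65.0 that covers counting error only. The adjusted p was 0.213 (edgeR), so Gbp2b did not pass. Of its 31-mers 95.9% occur in no other gene.

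**Figure D2:**
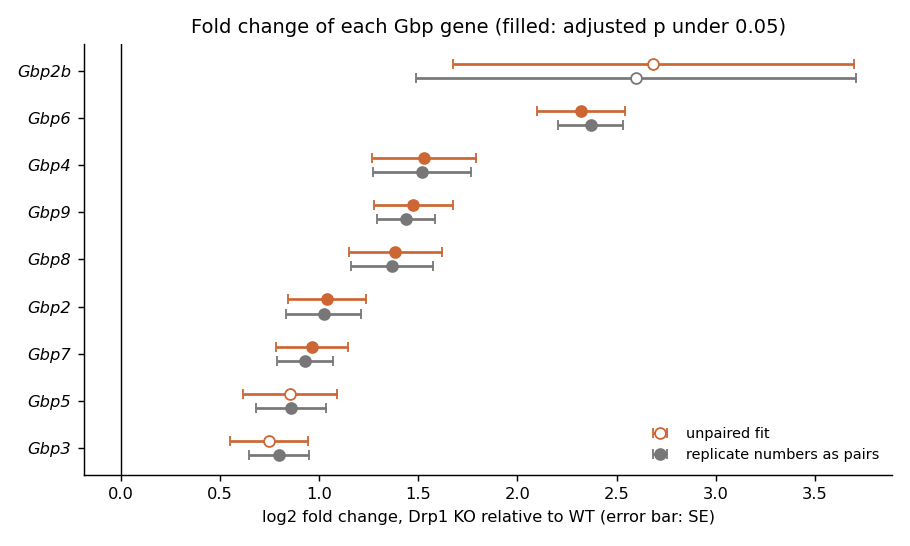
Log2 fold change of Drp1 KO relative to WT (x axis) for each Gbp gene, with SE as error bars. Both fits are edgeR, unpaired (orange) and with replicate numbers as pairs (grey). Filled points have an adjusted p under 0.05. Gbp3 and Gbp5 are filled in the paired fit only, Gbp2b in neither, and each point lies to the right of 0.

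Libraries with the same replicate number were compared for the 8 genes other than Gbp2b. The Drp1 KO library was higher in 8 of 8 genes for each of the 3 numbers. In the 7 genes whose genotypes did not overlap, any pairing would give this. The median difference in log2 CPM was 0.68 between libraries 1, 1.19 between libraries 2 and 1.59 between libraries 3. The difference between libraries 1 was the smallest of the 3 in 7 of the 8 genes, and that between libraries 3 was the largest in 6.

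Levels were compared between genes as TPM, which takes transcript length into account. In WT cells the order was Gbp3 (36.9 ± 10.4 TPM), Gbp2 (32.1 ± 4.91), Gbp7 (10.9 ± 0.277), Gbp6 (7.45 ± 2.34), Gbp9 (6.95 ± 1.49), Gbp5 (5.84 ± 1.51), Gbp8 (5.78 ± 1.15), Gbp4 (1.08 ± 0.217) and Gbp2b (0.0145 ± 0.0125). The ranges of the libraries overlapped between Gbp3 and Gbp2 and between each neighbouring pair from Gbp6 to Gbp8. In Drp1 KO cells the order was Gbp2 (62.8 ± 19.6 TPM), Gbp3 (59.4 ± 3.19), Gbp6 (35.5 ± 2.15), Gbp7 (19.1 ± 6.04), Gbp9 (16.1 ± 5.34), Gbp8 (13.2 ± 3.91), Gbp5 (10.8 ± 3.23), Gbp4 (2.93 ± 0.183) and Gbp2b (0.105 ± 0.0617). There Gbp2 and Gbp3 overlapped, as did each neighbouring pair from Gbp7 to Gbp5. Gbp6 moved past Gbp7, a pair chosen after its values were seen. The ratio of Gbp6 to Gbp7 TPM was 0.865, 0.705 and 0.467 in WT and 2.54, 1.99 and 1.41 in Drp1 KO libraries.

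The 9 genes together made up 123, 108 and 89.4 TPM in WT and 180, 222 and 258 TPM in Drp1 KO libraries. The sums did not overlap, and their means were 107 ± 17.0 and 220 ± 39.3 TPM, a ratio of 2.06. The 5 chromosome 3 genes went from 85.7 ± 15.1 to 152 ± 31.9 TPM, a ratio of 1.78. The 4 chromosome 5 genes went from 21.3 ± 2.72 to 67.7 ± 9.96 TPM, a ratio of 3.18. Gbp6 made up 6.96% of the family's TPM in WT and 16.1% in Drp1 KO cells. The TPM of the chromosome 5 genes divided by that of the chromosome 3 genes was 0.246, 0.218 and 0.291 in WT and 0.457, 0.511 and 0.385 in Drp1 KO libraries. The ratios did not overlap between genotypes, but this rests on Gbp6, the member hardest to assign. It had 7.45 TPM in WT and 35.5 TPM in Drp1 KO cells, and without it the ratios of the genotypes overlap. As counts, the chromosome 3 sum had a log2 fold change of 0.90 (SE 0.169, adjusted p = 0.0195, edgeR) and went from 158 ± 31.8 to 294 ± 54.6 CPM.

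**Figure D3:**
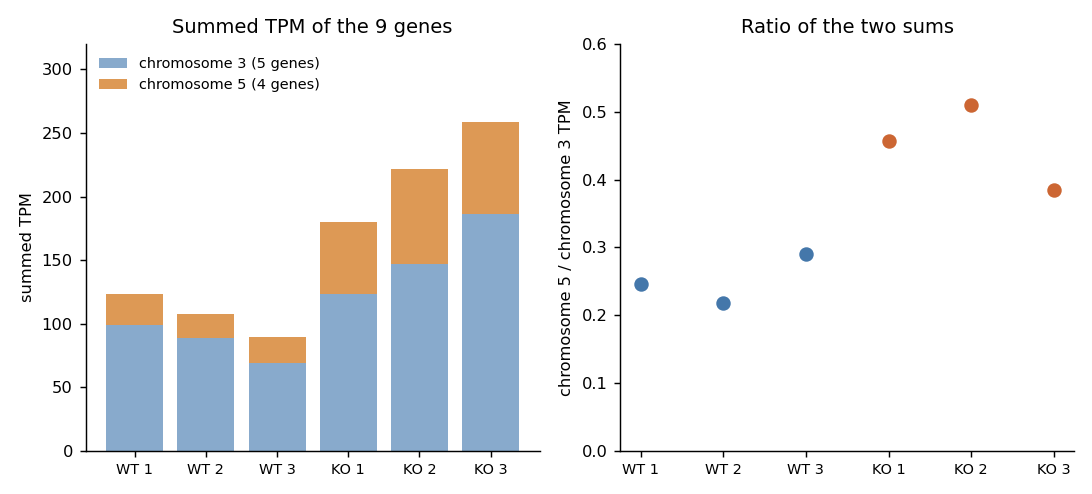
Left, summed TPM (y axis) of the 5 chromosome 3 genes (blue) and the 4 chromosome 5 genes (orange) in each library. Right, the chromosome 5 sum divided by the chromosome 3 sum in the WT (blue) and Drp1 KO (orange) libraries. The ratio is at most 0.291 in WT and at least 0.385 in Drp1 KO libraries. Gbp6 is part of the chromosome 5 sum, and without it the ratios of the genotypes overlap.

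The files hold 34 transcripts of the 9 genes, of which 25 had at least 5% of their gene's TPM in either genotype. Gbp2 and Gbp2b had 1 such transcript each. The split among transcripts of a gene is kallisto's estimate and was described without a test. In Gbp7, Gbp7-201 (5614 bases) carried 81.1% of the TPM in WT and 92.3% in Drp1 KO cells. The shorter coding transcript Gbp7-202 (2497 bases) had 28.3%, 16.5% and 11.6% in WT and 11.4%, 6.15% and 6.90% in Drp1 KO libraries. Its level was 2.07 ± 0.974 TPM in WT and 1.46 ± 0.291 TPM in Drp1 KO cells, so the higher level of Gbp7 lay on Gbp7-201, which went from 8.85 to 17.6 TPM.

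A similar split was seen in Gbp9, where Gbp9-201 (4381 bases) made up 41.3%, 45.6% and 46.5% in WT and 58.9%, 75.7% and 64.2% in Drp1 KO libraries. The shares did not overlap. The level of the shorter Gbp9-202 was 2.08 ± 0.852 TPM in WT and 2.14 ± 0.777 TPM in Drp1 KO cells, while Gbp9-201 went from 3.10 to 10.8 TPM. In Gbp8 the shorter coding transcript Gbp8-202 had 35.2%, 30.4% and 29.5% in WT and 14.3%, 14.1% and 20.7% in Drp1 KO libraries. Its level was 1.86 ± 0.548 TPM in WT and 2.15 ± 0.672 TPM in Drp1 KO cells. The other coding transcript, Gbp8-201, had 14.9% of the TPM in WT and 27.8% in Drp1 KO cells, and its shares overlapped. It went from 0.864 ± 0.490 to 3.67 ± 2.05 TPM. Averaged over the libraries, coding transcripts together made up 46.0% of Gbp8 TPM in WT and 45.1% in Drp1 KO cells. Gbp8-204, annotated without a coding sequence, had 51.2% and 50.9% of Gbp8 TPM in the 2 genotypes.

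In Gbp6 the coding transcript Gbp6-201 had 60.6% of the TPM in WT and 58.1% in Drp1 KO cells, and Gbp6-203, annotated as a target of nonsense-mediated decay, had 27.0% to 33.0% with the WT genotype and 29.4% to 40.3% with Drp1 KO. Gbp6-201 alone went from 4.52 ± 1.52 to 20.6 ± 1.36 TPM. In Gbp3 the coding Gbp3-203 had 84.0% and 78.4%, and in Gbp5 the coding Gbp5-201 had 57.3% to 74.4% with WT and 57.3% to 62.7% with Drp1 KO. The Gbp4 split was not stable between libraries of 1 genotype. Gbp4-202, a nonsense-mediated decay transcript, had 44.4%, 61.0% and 24.3% in WT and 33.4%, 0.00911% and 81.8% in Drp1 KO libraries, and the longest coding transcript Gbp4-201 had 62.4% in Drp1 KO library 2 and under 0.01% in each other library.

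**Figure D4:**
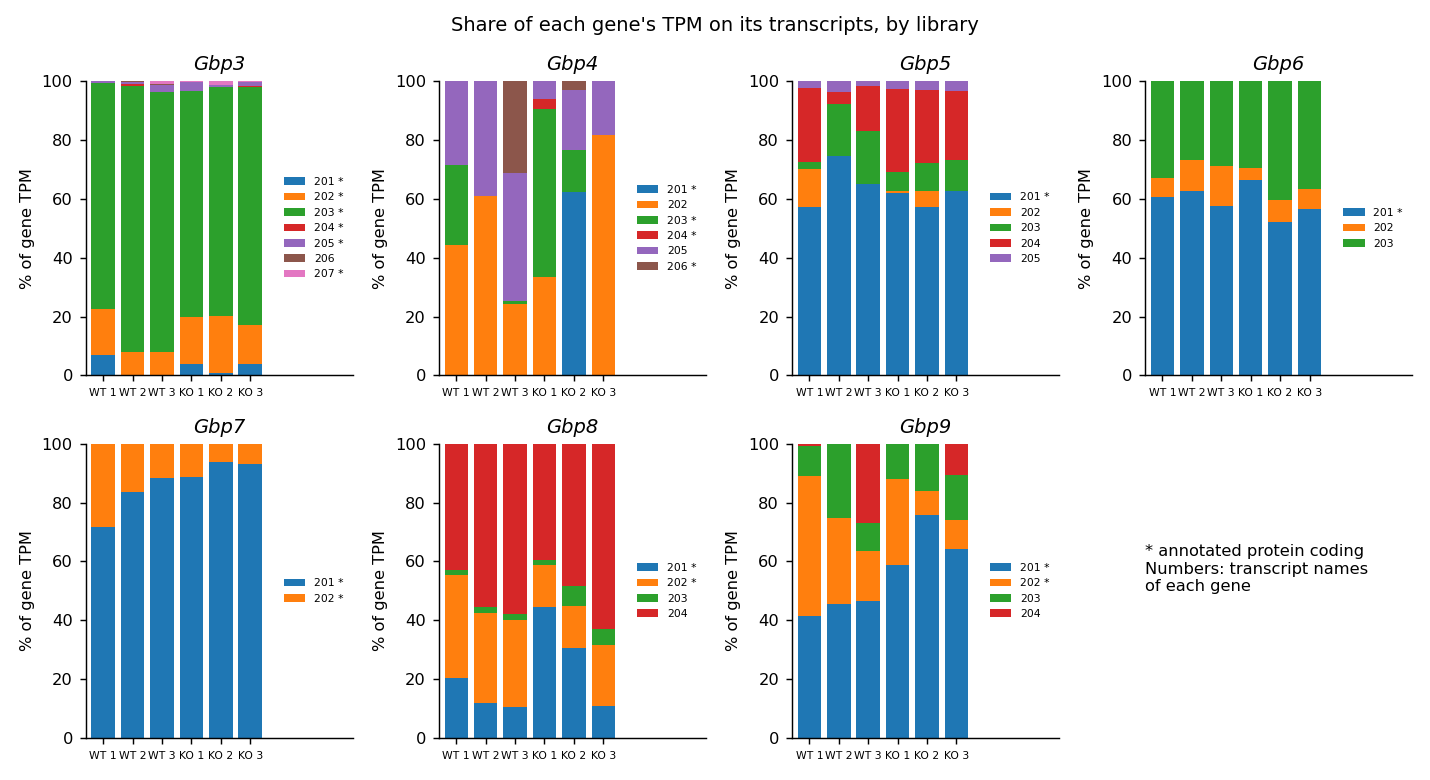
Share of each gene's TPM (y axis, percent) on its annotated transcripts in the 3 WT and 3 Drp1 KO (KO) libraries, for the 7 genes with more than 1 transcript of at least 5%. Legends give transcript numbers, and an asterisk marks transcripts annotated as protein coding. Gbp7-201 and Gbp9-201 take a larger share in each KO library than in each WT library, and the Gbp4 split differs between libraries of 1 genotype.

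The neighbours of the clusters were counted to see how far the pattern reached. Within 200 kb of the chromosome 3 cluster the annotation holds 16 genes that are no Gbp gene, of which 5 were tested and none passed (edgeR). Pkn2, a protein kinase, had a log2 fold change of 0.21 and Gtf2b, a general transcription factor, one of -0.17, and the pseudogene Gm43802 had -0.56. Around the chromosome 5 cluster 4 of 23 such genes were tested and none passed, with the zinc finger gene Zfp951 at 0.35. At an unadjusted p under 0.05, the rule that 9.03% of all genes met in that direction, 2 of these 9 tested genes were higher (Pkn2 and Zfp951), and none passed in DESeq2 or limma-voom.

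The interferon pathway was read from ligand to transcription factor. Of 21 interferon genes 13 had 0 counts in each library and 3 reached the filter, of which none passed in edgeR, DESeq2 or limma-voom or had an unadjusted p under 0.05. Ifnb1, the first type I interferon made by macrophages, had 0 counts in each library except Drp1 KO library 3, which had 5. Ifng, the type II interferon, had 1 count in WT library 2 and in Drp1 KO library 3 and 0 in the others. The 9 genes of receptors and their kinases had a median log2 fold change of -0.11, and none passed in edgeR, DESeq2 or limma-voom. The receptor subunit gene Ifngr1 went from 173 ± 14.1 to 150 ± 4.69 CPM and did not pass (adjusted p = 0.311), and Jak2 had 67.3 ± 4.12 and 80.6 ± 0.448 CPM (adjusted p = 0.171). Jak2 was the one gene of the list with an unadjusted p under 0.05, and it passed with the block (adjusted p = 0.0462).

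Of 13 transcription factor and coactivator genes 5 rose in edgeR, against 2.3% of all genes, and none fell (median log2 fold change 0.29). Stat2 (1.33, SE 0.152) and Irf9 (0.98, SE 0.115), which belong to the ISRE-binding complex, were among them. Irf7, which drives interferon-α genes, had 74.6, 21.2 and 19.3 CPM in WT and 349, 355 and 271 CPM in Drp1 KO libraries, a log2 fold change of 3.09 (SE 0.452). Irf1 rose less, from 40.3 ± 4.65 to 60.6 ± 4.88 CPM (log2 fold change 0.59, adjusted p = 0.0214). Nlrc5, the activator of MHC class I genes, was the remaining one (0.94). The other 8 did not pass, and among them Irf8 had a log2 fold change of 0.02. Irf2, a repressor that competes with IRF1, had -0.35 (adjusted p = 0.0970) and fell in DESeq2 (adjusted p = 0.0305) and with the block (0.0121), where Batf2 also rose (0.0466).

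The immunity-related GTPases (IRGs) are the smaller interferon-induced GTPases that act with GBPs at vacuoles. Of 19 listed, 12 were tested and 7 rose, and none fell in edgeR, DESeq2 or limma-voom. In edgeR 2.3% of all genes rose. The other 7 names were not in the annotation and were not analysed here. The median log2 fold change of the 12 was 1.45, beside 1.38 for the Gbp genes, or 1.21 without Gbp2b and 1.04 with Gbp2b at its bound. Igtp had 10.6, 13.5 and 9.78 CPM in WT and 38.7, 38.1 and 47.3 CPM in Drp1 KO libraries (log2 fold change 1.87, SE 0.149, adjusted p = 0.000310). Tgtp2 (2.73), Irgm1 (1.60), Ifi47 (1.77), Iigp1 (2.33), Irgm2 (1.20) and F830016B08Rik (1.68) were the others that rose, and with the block 9930111J21Rik2 did too (0.50, adjusted p = 0.00164). Of 8 related large GTPases the 5 interferon-induced ones rose, with log2 fold changes of 1.78 for Mx1, 2.05 for Mx2, 1.20 for Gvin1, 1.23 for Gvin2 and 1.86 for Gvin3. The 3 atlastins, GTPases that shape the endoplasmic reticulum, did not pass (Atl1 -0.07, Atl2 0.41 and Atl3 0.19), although Atl2 did with the block (adjusted p = 0.0209).

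Of 9 inflammasome genes that act downstream of GBPs 2 rose and none fell in edgeR, DESeq2 or limma-voom. In edgeR 2.3% of all genes rose. Casp4, the sensor caspase for cytosolic lipopolysaccharide, went from 17.9 ± 1.36 to 32.8 ± 5.72 CPM (log2 fold change 0.88, SE 0.140, adjusted p = 0.00819). Casp1 went from 137 ± 5.83 to 217 ± 32.7 CPM (0.67, SE 0.118, adjusted p = 0.0145). Aim2, a sensor of cytosolic DNA, had 48.0, 50.6 and 49.2 CPM in WT and 55.9, 69.6 and 61.2 CPM in Drp1 KO libraries and did not pass (0.34, adjusted p = 0.123), while with the block it did (0.33, adjusted p = 0.0211). None of 5 prenylation enzymes, which add the lipid anchors that some GBPs carry, passed in edgeR, DESeq2 or limma-voom (median 0.13), and 1 had an unadjusted p under 0.05. None of 11 genes of ATG8 conjugation, which directs GBPs to vacuoles, passed in edgeR (median -0.06). Atg12 (log2 fold change 0.45, adjusted p = 0.0531) was the one with an unadjusted p under 0.05, and it passed in DESeq2, in limma-voom and with the block (0.0111), where Gabarapl1 (-0.26) fell.

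**Figure D5:**
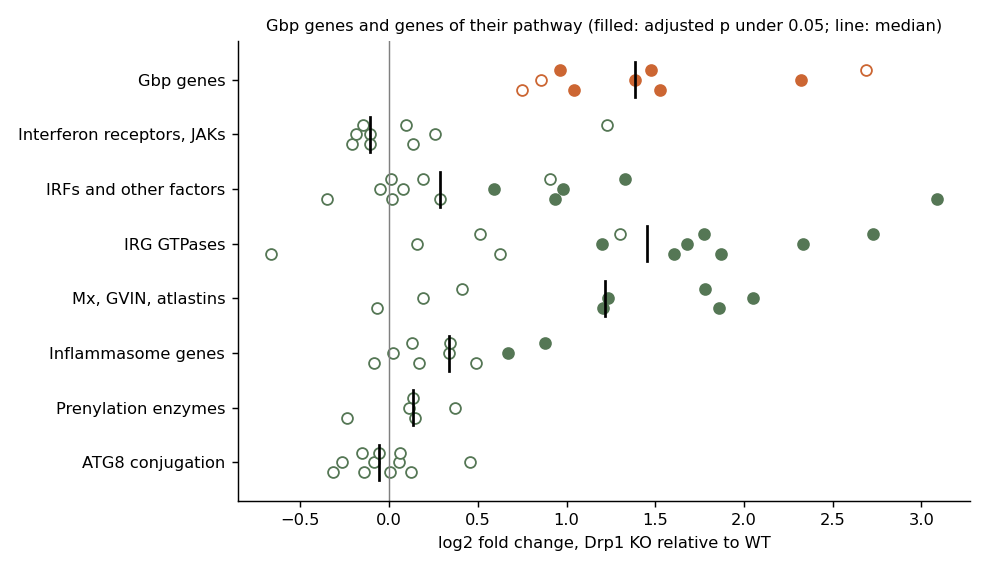
Log2 fold change of Drp1 KO relative to WT (x axis) for the tested genes of the Gbp list and 7 pathway lists (rows). Each point is a gene, filled where the adjusted p is under 0.05, and the black line is the median of the list. The Gbp, IRG and Mx, GVIN and atlastin rows have medians of 1.38, 1.45 and 1.22, and the rows of receptors, prenylation and ATG8 conjugation have no filled point.

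Markers of other cells were read beside the Gbp genes, since RNA of a tissue or culture does not tell fewer cells of a type from less RNA per cell. The summed CPM of 11 neutrophil markers ran from 90.3 to 98.5 in the WT group and from 119 to 221 in the Drp1 KO group, most of it Mmp8. Mmp8, a neutrophil collagenase, had 186, 69.2 and 174 CPM in the Drp1 KO libraries, of which library 2 was below each WT library (70.4 to 89.1 CPM). All 8 that were tested had log2 fold changes above 0, none passed in edgeR or limma-voom, and the defining marker Ly6g had 0 counts in each library. At an unadjusted p under 0.05 they numbered 5 of 8, against 9.03% of all genes higher by that rule, DESeq2 called 2 higher (Ngp and S100a8), and with the block 5 rose (also S100a9, Mmp8 and Ltf). The 10 lymphocyte and NK markers summed to 308 to 324 CPM in WT and 124 to 248 CPM in Drp1 KO libraries, most of it Cd4, and the NK receptor gene Ncr1 had 0 counts. Cd4 had a log2 fold change of -0.90 (adjusted p = 0.0594) and fell in DESeq2, in limma-voom and with the block. The 9 dendritic cell markers summed to 83.8 to 134 and 125 to 166 CPM, mostly the interferon-induced Bst2, which rose with the block. The 7 fibroblast markers summed to 1.95 to 3.45 and 2.05 to 2.33 CPM. None of the 27 tested markers of these kinds passed in edgeR, 8 had an unadjusted p under 0.05 in either direction, against 16.4% of all genes, and their part in the Gbp difference was not tested.

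The genes most like the family were found by the Pearson correlation of their log2 CPM with the mean log2 CPM of the 8 Gbp genes of at least 1 CPM. Over 12245 genes and the 6 libraries, which share the genotype contrast, the highest were Necap1 (r = 0.998), Cept1 (0.997), Rigi (0.997), Tgtp2 (0.996) and Ifit3b (0.996). Rigi, a sensor of viral RNA, went from 57.1 ± 8.60 to 156 ± 27.3 CPM, and Ifit3b, an interferon-induced gene, from 11.7 ± 2.79 to 49.6 ± 15.3 CPM. Necap1, which acts in endocytosis, went only from 81.0 ± 3.02 to 97.9 ± 3.39 CPM (log2 fold change 0.27, adjusted p = 0.134). A high r thus did not go with a large change in each case, and it was read as a description with no test.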

How the data were processed

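RNA of 6 libraries was sequenced from poly(A) mRNA with paired-end reads. The authors quantified the reads with kallisto 0.46.1 on Ensembl cDNA of GRCm39 and deposited an estimated count and a TPM per transcript, with no scaling of the estimated counts between libraries. TPM is scaled for effective length and library depth. Whether strand was used in counting is not given in the sources used here.

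Of 116873 transcripts 116210 (99.4%) matched GENCODE genes by identifier. Estimated counts were summed per gene and rounded, and genes with at least 10 counts in total were fitted with edgeR 4.0.16 (R 4.3.3, TMM, quasi-likelihood test, no covariate, Benjamini-Hochberg adjustment over the genes tested). Standard errors were derived from the fold change and the F statistic, and CPM use TMM library sizes. The test was checked on simulated data first. Reported intervals and floors cover counting error only.

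The study's methods use DESeq2 and here edgeR replaced it. The alternatives were DESeq2 1.42.0, limma-voom 3.58.1, other scalings and filters, length-scaled counts, protein-coding transcripts only, cluster sums, a replicate block and each library left out. The replicate block took libraries with the same replicate number as pairs, which the labels do not state. Deviations from group means correlated at 0.510, 0.203 and 0.298 between same-numbered libraries over 12253 genes (-0.444 to 0.326 between others). The 0.326, between WT library 2 and Drp1 KO library 3, was above the values of the pairs numbered 2 and 3. The data thus do not settle the pairing. No library was a copy of another (chi-square per degree of freedom at least 9.51).

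The members, lists and tests were chosen with earlier results of these data known. Named were the members, Dnm1l, Gbp10 and Gbp11, up to 4 genes per list by smallest p with a mean of at least 1 CPM plus Irf1, Ifnb1, Ifng, Casp4 and Aim2, up to 4 neighbours within 200 kb, the 5 genes most like the family, and transcripts of at least 5% of a gene's TPM. Other named genes, such as those that passed under 1 setting, were chosen after their values were seen. Of the lists, 2 genes are not reported here and were left out of the counts given. Sequence sharing was counted with 31-mers of GENCODE transcripts, of which 24 of 37 had the length given in the files.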

Additional observations from a re-analysis of the deposited data

How the results depend on the processing

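The direction of the 9 Gbp genes was the same in each alternative that gave a value, and none of the 9 was called lower. The number of the 9 called higher was 6 as reported, 8 with DESeq2, with genes of at least 1 count and with the replicate block, 7 with library size only, 6 with limma-voom, with size factors by the median of ratios, with filterByExpr (8 of the 9 tested) and with length-scaled counts, and 4 with protein-coding transcripts only. Of all genes tested, 2.3% rose as reported, 3.58% with DESeq2, 2.69% with at least 1 count and 6.74% with the block. The share was 2.4% with library size only, 2.22% with limma-voom, 2.16% with the median of ratios and 2.96% with filterByExpr. Length-scaled counts gave 1.72% and protein-coding transcripts only 2.54%. With 1 library left out the number of the 9 called higher ranged from 2 to 7, beside 0.768% to 2.89% of all genes. It was 2 without WT library 2 or WT library 3 and 3 without Drp1 KO library 2, where calls over all genes were 181, 217 and 270 against 622. The cause was not tested. The number of the 9 past the study's fold and unadjusted p criteria was 8 or 9 in each fit. In the 15 fits, past the threshold were Gbp2, Gbp7 and Gbp8 in 12, Gbp4 in 11, Gbp3 in 5, Gbp5 in 4 and Gbp2b in none of the 12 that gave it an adjusted p (DESeq2 gave none), and Dnm1l was in none (log2 fold change -0.28 to -0.20). No scaling moved the median log2 fold change of all genes by over 0.1. With the replicate block the calls of Gbp3 (0.80) and Gbp5 (0.86) were gained, and no other call among the 9 changed. Calls over all genes were then 2214, of which 56.4% were higher, against 68.3% of 622, and DESeq2 made 1155 calls with 57.4% higher. Depth limits Gbp2b, Gbp10 and Gbp11, which had at most 32 counts in a library.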
